A study of Mus musculus with 6 samples.

Results

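The aryl hydrocarbon receptor (AhR) and its direct partners and target genes were followed in C2C12 myotubes exposed to sugarcane top ethanolic extract (STEE). The 7 genes were chosen by symbol, without a filter on their values, though earlier results of these data were known. They are the receptor *Ahr*, its DNA-binding partner *Arnt*, its repressor *Ahrr*, and 4 target genes, *Cyp1a1*, *Cyp1a2*, *Cyp1b1* and *Tiparp*. Each had 1 probe set that carried no other gene symbol, so 7 of the 22206 gene probe sets tested, or 7 of 22662 gene symbols, were described. C2C12 is a mouse myoblast cell line whose cells fuse into multinucleated myotubes in low serum, and the myotubes were used after 6 days of differentiation. The groups were untreated myotubes (Ctrl-M), myotubes given STEE at 30 µg/mL for 6 h (STEE30-M) and myotubes given 50 µg/mL for 6 h (STEE50-M), the extract being given in Opti-MEM without serum. Control RNA was collected on the same schedule, and the labels do not say whether the control dishes also received Opti-MEM. Every group was the same cell line without any transgene or deletion and was read on 2 Clariom S Mouse arrays. The methods speak of 2 biological samples a group, and the paper counts the array replicates among the biological replicates of its qPCR. The series description speaks of duplicate arrays for each sample. A test here thus covers the spread of these arrays alone, which by that description may be technical.

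AhR is a transcription factor of the bHLH-PAS family that waits in the cytosol, bound to HSP90 and its co-chaperones, until a ligand such as a dioxin, a polycyclic hydrocarbon, a tryptophan metabolite or a plant flavonoid enters its pocket. It then moves to the nucleus, pairs with ARNT and binds DNA elements with the core GCGTG near genes for xenobiotic metabolism. AHRR competes for ARNT and for these elements, and TIPARP, an ADP-ribosyltransferase, modifies the receptor and limits its activity, so both are targets that act back on it. The major polyphenols of STEE named in the paper are caffeoylquinic acids, a feruloylquinic acid and the flavone glucoside isoorientin. The question put to these 7 genes was how their transcripts stood in treated against untreated myotubes.

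The promoters of the 5 genes known as AhR targets are printed here because the number and the place of the response element core differ among them. Each sequence is the RefSeq window (GRCm38.p6, the mm10 build to which the array is annotated) from 250 bases before to 50 bases after the annotated start, on the strand of the gene. The capitals mark the core, GCGTG, or CACGC where it lies on the opposite strand, and both strands were searched.
Cyp1a1: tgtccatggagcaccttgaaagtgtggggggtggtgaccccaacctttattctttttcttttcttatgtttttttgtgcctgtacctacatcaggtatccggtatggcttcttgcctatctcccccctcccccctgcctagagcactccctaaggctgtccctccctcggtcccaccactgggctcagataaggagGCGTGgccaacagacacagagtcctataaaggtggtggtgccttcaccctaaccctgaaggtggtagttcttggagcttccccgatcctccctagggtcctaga
Cyp1a2: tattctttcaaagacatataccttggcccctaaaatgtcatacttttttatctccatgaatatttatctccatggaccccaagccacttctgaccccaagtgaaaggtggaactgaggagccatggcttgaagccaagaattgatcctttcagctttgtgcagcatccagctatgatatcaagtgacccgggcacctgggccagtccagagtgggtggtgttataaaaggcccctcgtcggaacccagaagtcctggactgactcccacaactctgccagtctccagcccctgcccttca
Cyp1b1: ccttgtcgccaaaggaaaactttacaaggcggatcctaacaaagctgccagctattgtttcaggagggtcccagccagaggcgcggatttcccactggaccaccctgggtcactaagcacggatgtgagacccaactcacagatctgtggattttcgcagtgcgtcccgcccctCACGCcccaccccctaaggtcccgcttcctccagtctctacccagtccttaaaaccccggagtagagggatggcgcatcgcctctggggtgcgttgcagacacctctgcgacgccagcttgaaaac
Tiparp: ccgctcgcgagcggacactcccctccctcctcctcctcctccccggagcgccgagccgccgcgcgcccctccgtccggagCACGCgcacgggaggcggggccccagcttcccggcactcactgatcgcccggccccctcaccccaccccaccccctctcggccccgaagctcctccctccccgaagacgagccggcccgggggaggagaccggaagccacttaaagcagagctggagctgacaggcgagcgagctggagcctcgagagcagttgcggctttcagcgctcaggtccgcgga
Ahrr: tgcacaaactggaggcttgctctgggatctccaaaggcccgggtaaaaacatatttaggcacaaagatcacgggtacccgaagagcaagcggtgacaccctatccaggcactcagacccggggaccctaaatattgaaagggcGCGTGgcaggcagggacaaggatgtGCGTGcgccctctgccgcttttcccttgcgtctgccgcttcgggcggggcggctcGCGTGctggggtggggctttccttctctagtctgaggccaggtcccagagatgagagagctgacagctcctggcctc
These windows lie at chr9:57697363-57697662 (plus strand), chr9:57683606-57683905 (minus strand), chr17:79715012-79715311 (minus strand), chr3:65528197-65528496 (plus strand) and chr13:74292282-74292581 (minus strand), in the order printed. The *Cyp1a1* window held 1 core on the strand of the gene, with its first base at -54 from the start. *Cyp1b1* and *Tiparp* each held 1 on the opposite strand, at -76 and -170. The *Ahrr* window held 3 cores, at -107, -82 and -27, all on the strand of the gene, and 3.91% of all windows held 3 or more. Its core at -27 was also the only match to the longer motif TNGCGTG, which overlaps the core and was found in 5.07% of all windows. The *Cyp1a2* window held no core. *Cyp1a2* and *Cyp1a1* are neighbours that face away from each other. The starts used for their windows lie 13958 bases apart, although the gene span of *Cyp1a1* given below begins closer to *Cyp1a2*, at 57687928. The AhR elements best known for this pair lie in the stretch between the starts used, mostly outside both windows. *Arnt*, which is not known as a target, held 1 core at -29 in its window (chr3:95434140-95434439, plus strand). A window was found for 6 of the 7 genes, all but *Ahr*. Of the 32851 mouse promoter windows searched, 32.4% held the core, so a single match is common, and a match describes the letters and not binding.

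**Figure D1:**
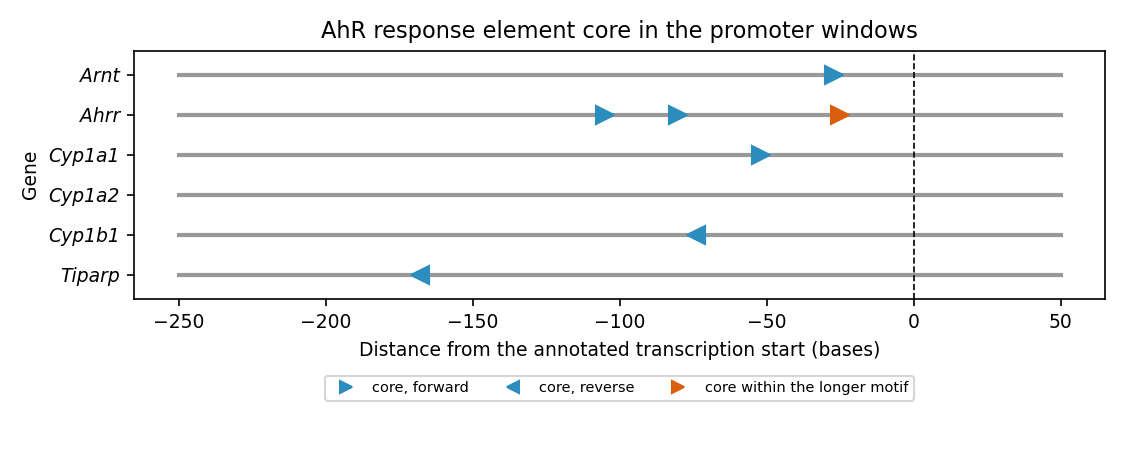
Position of the AhR response element core in the promoter windows of 6 genes, as distance in bases from the annotated transcription start (dashed line, position 0); grey bars are the windows, triangles pointing right are cores on the strand of the gene, triangles pointing left cores on the opposite strand, and orange marks the core within the longer motif. *Ahrr* has 3 cores and *Cyp1a2* has none.

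The arrays differed little as a whole. Array medians lay between 5.7 and 5.77 on the log2 scale and arrays correlated with each other at 0.9913 to 0.9941. Background was placed at a log2 signal of 5.323, below which 95% of the 1482 chemosensory receptor probe sets (of smell, vomeronasal organ and taste) fell in mean, and 12032 probe sets (54.2%) were brighter in mean than this. Markers of myotubes were above it in 10 of 10 genes, with mean log2 signals of 14.659 and 14.864 in Ctrl-M, 14.681 and 15.044 in STEE30-M, and 14.874 and 15.562 in STEE50-M. In STEE50-M all 10 lay above Ctrl-M in mean signal, with a median difference of 0.433, and 1 of them, *Myh3* (embryonic myosin heavy chain), passed the study thresholds (an unadjusted limma p under 0.05 and a linear fold of at least 1.2), with a log2 difference of 0.64. This rested mostly on STEE50-M replicate 2. Without it 7 of the 10 lay above Ctrl-M with a median of 0.118, and *Myh3* (0.37) did not pass, nor did it without Ctrl-M replicate 1 (0.52). Markers of myoblasts and undifferentiated reserve cells were above background in 5 of 6 genes, all but *Pax7*, and their mean signal ranged from 10.463 to 10.808. Of the markers of hepatocytes, in which *Cyp1a2* is best known, 0 of 6 were above background, as were 0 of 4 endothelial markers and 1 of 4 macrophage markers, *Cd68*. *Csf1r*, a macrophage growth factor receptor whose signal was below background on all arrays, passed downward in STEE50-M (-0.56), but not without either Ctrl-M array (-0.57 and -0.55) or without STEE50-M replicate 2 (-0.38). In these bulk samples a lower share of a cell type and less RNA per cell cannot be told apart, and the part of the myotube markers in the values below was not tested.

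*Ahr* itself was well above background on every array. Its log2 signal was 8.37 and 8.81 in Ctrl-M, 8.44 and 8.34 in STEE30-M, and 7.98 and 8.72 in STEE50-M. The lowest and the second highest of the 6 values both came from STEE50-M, and the groups overlapped. From the highest mean the groups stood in the order Ctrl-M (8.59 ± 0.311, SD), STEE30-M (8.39 ± 0.071) and STEE50-M (8.35 ± 0.523), with no neighbouring pair further apart than its spread. The log2 fold change was -0.2 at 30 µg/mL (SE 0.286, 95% CI -0.85 to 0.45) and -0.24 at 50 µg/mL (SE 0.286, 95% CI -0.89 to 0.41), with adjusted p = 0.998 and adjusted p = 0.997 by limma, adjusted after Benjamini-Hochberg over all probe sets. On the linear scale the second interval runs from 0.54-fold to 1.33-fold, so changes of up to that size in either direction could not be told from no change with these arrays. The gene lies at chr12:35497979-35534989.

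*Arnt*, the partner that AhR shares with the hypoxia-inducible factors, varied least between replicates among the 7 genes. It gave 11.90 and 11.93 in Ctrl-M, 11.74 and 11.96 in STEE30-M, and 11.85 and 11.75 in STEE50-M. Both STEE50-M arrays lay below both Ctrl-M arrays, while STEE30-M held both the lowest and the highest value. The difference was -0.115 at 50 µg/mL (SE 0.205, 95% CI -0.582 to 0.352) and -0.065 at 30 µg/mL (95% CI -0.532 to 0.402). *Arnt* lies at chr3:95434367-95497240. The intervals of both the receptor and its partner included 0 at both doses.

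*Ahrr*, which encodes the repressor, gave a signal just above the background level. Its values were 5.78 and 5.50 in Ctrl-M, 5.35 and 5.72 in STEE30-M, and 6.07 and 5.85 in STEE50-M, and the lowest array was only 0.03 above background. Both STEE50-M arrays were higher than all 4 others. The group means were 5.535 ± 0.262 in STEE30-M, 5.64 ± 0.198 in Ctrl-M and 5.96 ± 0.156 in STEE50-M (SD). STEE50-M exceeded Ctrl-M by 0.32 (SE 0.232, 95% CI -0.207 to 0.847, adjusted p = 0.974), a 1.25-fold difference, and exceeded STEE30-M by 0.425 (SE 0.232, 95% CI -0.102 to 0.952, adjusted p = 0.997). At 30 µg/mL the difference from Ctrl-M was -0.105 (SE 0.232). None of these passed the test, and *Ahrr*, at chr13:74211118-74292331, is the gene with 3 cores in the promoter printed above.

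**Figure D2:**
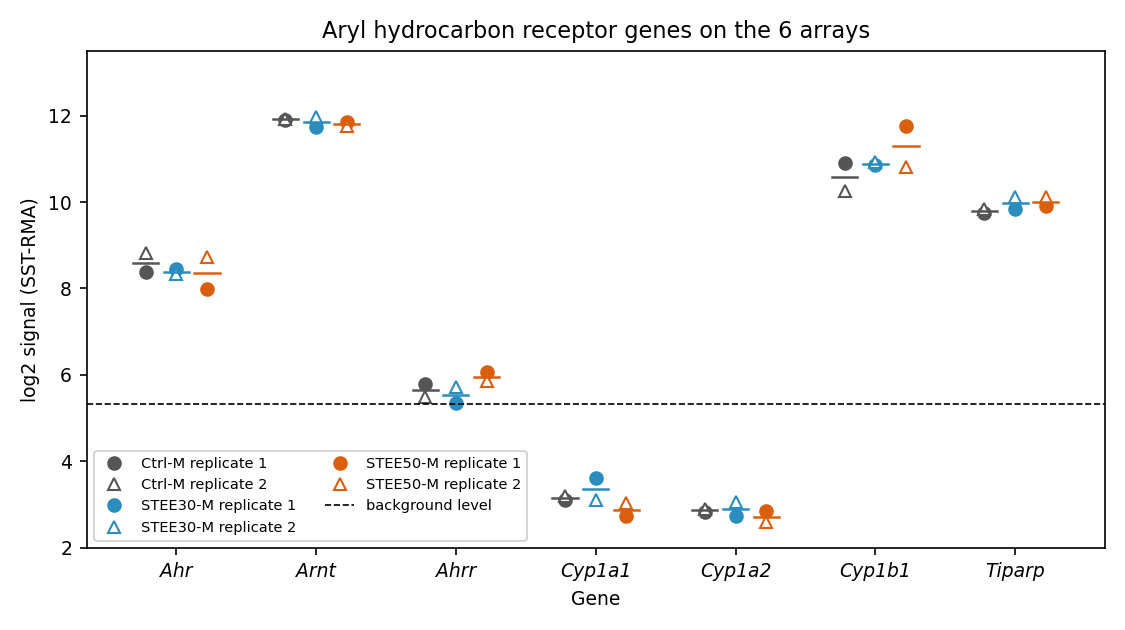
Log2 signal (SST-RMA, vertical axis) of the 7 genes on the 6 arrays, with filled circles for replicate 1, open triangles for replicate 2, short lines for group means and a dashed line for the background level of 5.323. *Cyp1a1* and *Cyp1a2* lie below the line on all 6 arrays, *Ahrr* just above it and the other 4 genes well above it, and brightness is not comparable between different genes.

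The CYP1A enzymes, which oxidise polycyclic hydrocarbons, drugs and caffeine and are the classical readout of AhR activity, were not detected above background in any group. *Cyp1a1* gave 3.10 and 3.21 in Ctrl-M, 3.61 and 3.11 in STEE30-M, and 2.74 and 3.03 in STEE50-M. Its highest array was 1.71 below the background level, and only 9.72% of the chemosensory receptor probe sets were dimmer. The highest value belonged to STEE30-M and the lowest pair to STEE50-M, but at this brightness the order of the values has no reading as expression, and only differences in signal are given. The signal differed from Ctrl-M by 0.205 at 30 µg/mL (95% CI -0.345 to 0.755) and by -0.27 at 50 µg/mL (95% CI -0.82 to 0.28). Between the doses the signal difference was -0.475 (95% CI -1.025 to 0.075, adjusted p = 0.997). Without STEE30-M replicate 2 it was -0.725 and passed the study thresholds, although all arrays stayed below background. The gene lies at chr9:57687928-57703824.

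*Cyp1a2*, mainly a liver enzyme, behaved alike. Its values were 2.84 and 2.89 in Ctrl-M, 2.73 and 3.05 in STEE30-M, and 2.85 and 2.59 in STEE50-M, and the groups overlapped. The brightest array was 2.27 below background and 3.04% of the chemosensory receptor probe sets were dimmer. The signal differences from Ctrl-M were 0.025 at 30 µg/mL (95% CI -0.476 to 0.526) and -0.145 at 50 µg/mL (95% CI -0.646 to 0.356). A transcript below background on an array can be absent or too scarce for the probes, so these values say only that neither *Cyp1a* gene reached the detectable range within 6 h. *Cyp1a2* lies at chr9:57676937-57683655.

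*Cyp1b1*, the CYP1 form typical of fibroblasts and other mesenchymal cells, was in contrast bright on all arrays and had the largest difference of the 7 genes. It gave 10.91 and 10.26 in Ctrl-M, 10.85 and 10.92 in STEE30-M, and 11.76 and 10.82 in STEE50-M. STEE50-M replicate 1 stood above all the others and Ctrl-M replicate 2 below them, while the remaining 4 arrays, from all 3 groups, lay between 10.82 and 10.92. The group means followed the dose (Ctrl-M 10.585 ± 0.46, STEE30-M 10.885 ± 0.049, STEE50-M 11.29 ± 0.665, SD), but the groups overlapped. At 50 µg/mL the log2 fold change was 0.705 (SE 0.337, 95% CI -0.061 to 1.471, adjusted p = 0.952 by limma with Benjamini-Hochberg adjustment over all probe sets), or 1.63-fold (95% CI 0.958 to 2.77). Of all probe sets, 2.51% had a larger difference in this comparison. At 30 µg/mL it was 0.3 (SE 0.337), and the step from 30 to 50 µg/mL was 0.405 (SE 0.337). Taking both doses together against Ctrl-M gave 0.502 (SE 0.292, 95% CI -0.161 to 1.166). None of these passed the study thresholds.

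Single arrays set the size of the *Cyp1b1* difference. At 50 µg/mL it was 1.175 without STEE50-M replicate 2 and 1.03 without Ctrl-M replicate 1, both past the study thresholds, but 0.235 without STEE50-M replicate 1 and 0.38 without Ctrl-M replicate 2. Without STEE50-M replicate 2 the step between the doses (0.875) and the difference of both doses (0.737) also passed. Without STEE50-M replicate 1 the step was -0.065 and the difference of both doses 0.268, and without Ctrl-M replicate 2 the latter was 0.177. The difference at 50 µg/mL also passed where the prior of the variance was fitted along the signal. The replicate SD of *Cyp1b1*, pooled over the groups, was 0.467, against a median of 0.183 for the 2526 probe sets within 1 log2 unit of its level, and 98.1% of these varied less. The gene lies at chr17:79706940-79715061.

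*Tiparp*, an immediate target of AhR in many cell types, showed a small difference that did not pass the thresholds. Its values were 9.74 and 9.83 in Ctrl-M, 9.85 and 10.12 in STEE30-M, and 9.90 and 10.12 in STEE50-M. All 4 treated arrays were above both Ctrl-M arrays, by as little as 0.02 for the lowest. The means were 9.785 ± 0.064, 9.985 ± 0.191 and 10.01 ± 0.156 (SD), with the 2 doses within their spread of each other (difference 0.025, SE 0.215). The log2 fold change was 0.2 at 30 µg/mL (SE 0.215, 95% CI -0.288 to 0.688), 0.225 at 50 µg/mL (SE 0.215, 95% CI -0.263 to 0.713) and 0.212 for both doses (SE 0.186, 95% CI -0.21 to 0.635, adjusted p = 0.998). At 30 µg/mL it was 0.065 without STEE30-M replicate 2 and 0.335 without STEE30-M replicate 1. The difference for both doses is 1.16-fold, with a 95% interval from 0.864 to 1.55. *Tiparp* was the only one of the 7 genes whose treated arrays at both doses all lay on 1 side of Ctrl-M, and 5.68% of all probe sets lay higher in this way. The gene spans chr3:65528447-65555518.

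**Figure D3:**
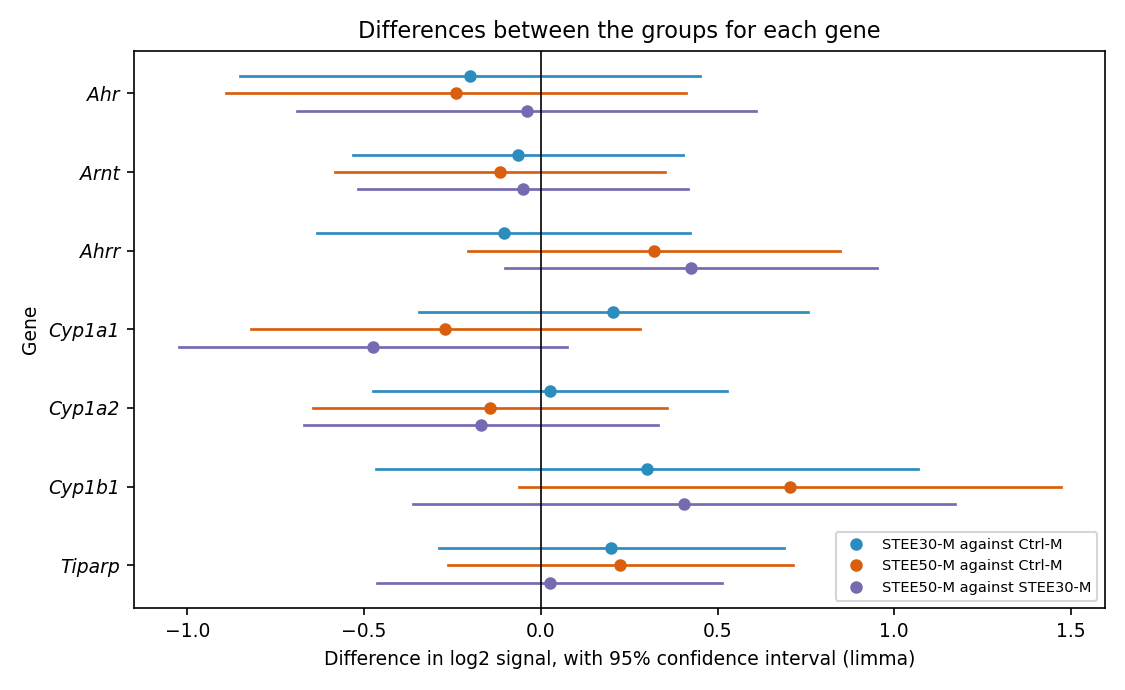
Difference in log2 signal (horizontal axis) of each gene for the 3 pairs of groups, with points for limma estimates and lines for their 95% confidence intervals. Every interval includes 0, and that of *Cyp1b1* in STEE50-M against Ctrl-M (-0.061 to 1.471) comes closest to leaving it on the positive side.

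Counted together, 0 of the 7 genes passed the study thresholds in any of the comparisons, and 0 had an unadjusted p under 0.05. Their adjusted p ran from 0.952 to 0.998. The share of all probe sets that passed was 4.09% in STEE30-M against Ctrl-M, 5.05% in STEE50-M against Ctrl-M, 4.61% in STEE50-M against STEE30-M and 4.47% for both doses against Ctrl-M, which is close to the share of unadjusted p-values that falls under the threshold without any change. The number of probe sets with an adjusted p under 0.05 in limma was 0 in each of the 4 comparisons, against 909, 1121, 1023 and 992 with an unadjusted p under 0.05. Groups that did not overlap were found for 1 of the 7 genes at 30 µg/mL against 30.2% of all probe sets, for 4 at 50 µg/mL against 34.7%, for 2 between the doses against 28.4%, and for 1 with both doses against 12.4%. In the last comparison the direction was higher for 5.68% of all probe sets and lower for 6.77%. The 4 genes at 50 µg/mL were *Ahrr* and *Tiparp*, higher, and *Arnt* and *Cyp1a1*, lower. The median log2 difference over the 7 genes was 0.025, -0.115, -0.04 and -0.033 in the 4 comparisons, beside -0.005, -0.01, -0.005 and -0.007 over all probe sets. The comparisons share arrays, the first, second and last all using the same Ctrl-M arrays, and are not independent of each other.

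Among the 5 genes above background, *Ahr* and *Cyp1b1* varied in opposite directions from array to array. The array with the lowest *Ahr* signal (STEE50-M replicate 1, 7.98) had the highest *Cyp1b1* signal (11.76), the array with the highest *Ahr* signal (Ctrl-M replicate 2, 8.81) had the lowest (10.26), and the order of the 6 arrays by one gene was the exact reverse of the order by the other. Pearson's r was -0.921 (exact two-sided permutation p = 0.00139, adjusted 0.0139 over the 10 pairs computed among the 5 genes) and Spearman's rho was -1.0 (exact p = 0.00278, adjusted 0.0278). Without the 2 arrays furthest from the median of *Ahr*, which are the same 2 arrays just named, r was -0.896 over the remaining 4. Their *Cyp1b1* values lay only between 10.82 and 10.92, well within its replicate SD of 0.467. This r and the order of these 4 arrays thus rest on steps smaller than the spread of replicates. The opposite movement was seen between the replicates of all 3 groups, and a group of 2 arrays gives no r of its own. Of the 12031 other probe sets above background, 54 (0.449%) had an r with *Ahr* as low as this, 21 (0.175%) had its exactly reversed rank order, and 1425 (11.8%) moved against it between the replicates of all 3 groups. The pair was singled out after the values were seen, and the arrays share 1 normalization. The permutations also moved values freely over the 6 arrays, ignoring the groups, whose 2 arrays may be technical duplicates. These p-values therefore describe the 6 arrays and do not establish a relation between the genes. No other pair had an adjusted p under 0.4, the next being *Ahrr* with *Cyp1b1* at r = 0.733 (exact p = 0.0833, adjusted 0.417; rho = 0.486, exact p = 0.356).

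**Figure D4:**
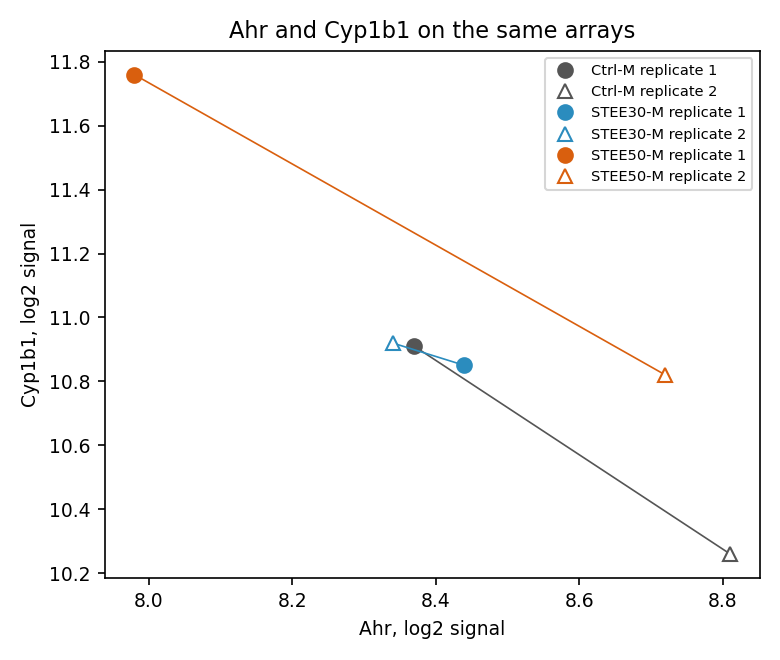
Log2 signal of *Cyp1b1* (vertical axis) against that of *Ahr* (horizontal axis) on the 6 arrays, with lines joining the replicates of a group. All 3 lines slope down, with STEE50-M replicate 1 at the upper left (7.98, 11.76) and Ctrl-M replicate 2 at the lower right (8.81, 10.26).

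The probe sets whose signal ran closest to each gene over the 6 arrays, out of 11589 above background with 1 symbol, are given as a description. *Ahr* was followed most closely by *Lmbrd2* (r = 0.999) and *Ndel1* (0.995), and *Arnt* by *Tigar* (1 after rounding) and *Med11* (0.998). *Ahrr* was closest to *Ppm1f* (0.995) and *Il4ra* (0.982). *Cyp1b1* was closest to *Asrgl1* (0.99) and *Gm11555* (0.989), and *Tiparp* to *Sgca* (0.992), a sarcoglycan of the muscle membrane, and *Mob2* (0.99). With 6 arrays such values are common, since between 80 and 160 probe sets had an r above 0.9 with each of the 5 genes.

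The machinery around the receptor was expressed. All 10 genes of the cytosolic complex and the coactivators, among them the HSP90 chaperones that hold the receptor without ligand, were above background. At 30 µg/mL 0 rose and 1 fell, *Ncoa3*, a steroid receptor coactivator, and 0 passed in the other comparisons. Over all probe sets, 4.09% passed at 30 µg/mL, 5.05% at 50 µg/mL, 4.61% between the doses and 4.47% with both doses together. The counts of the lists here and below, and of the marker lists above, were not tested against these shares. *Ncoa3* gave 7.09 and 7.06 in Ctrl-M, 6.19 and 6.74 in STEE30-M, and 6.79 and 7.04 in STEE50-M. Both STEE30-M arrays were below both controls, with a log2 difference of -0.61 (SE 0.244, adjusted p = 0.998 by limma). *Ncoa3* did not pass without STEE30-M replicate 1 (-0.335), Ctrl-M replicate 1 (-0.595) or Ctrl-M replicate 2 (-0.625). Leaving an array out of a compared group also makes the test less precise. A call lost in this way, here and below, need not mean a smaller difference. The list median was -0.035 at 30 µg/mL and 0.003 at 50 µg/mL.

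Of 13 other bHLH-PAS genes, the family of AhR, 6 were above background. At 30 µg/mL 0 rose and 2 fell (*Hif3a* and *Npas2*), at 50 µg/mL 1 fell (*Hif3a*), and with both doses together the same 2 fell as at 30 µg/mL. *Npas2*, a relative of the circadian factor CLOCK, gave 5.97 and 5.69 in Ctrl-M, 5.38 and 5.10 in STEE30-M, and 5.36 and 5.63 in STEE50-M, and every treated array was below both controls. Its log2 difference was -0.59 at 30 µg/mL (SE 0.228, adjusted p = 0.998) and -0.335 at 50 µg/mL, and its signal was close to background. It did not pass at 30 µg/mL without Ctrl-M replicate 1 or without STEE30-M replicate 2 (-0.45 in both cases). With both doses together *Npas2* (-0.462) did not pass without either Ctrl-M array, STEE30-M replicate 2 or STEE50-M replicate 1 (-0.603 to -0.323). *Hif3a*, a hypoxia-inducible factor subunit, gave 4.21 and 4.66 in Ctrl-M, 3.87 and 3.38 in STEE30-M, and 3.56 and 3.75 in STEE50-M. All treated arrays were below both controls, with signal differences of -0.81 at 30 µg/mL and -0.78 at 50 µg/mL (SE 0.257), but all 6 were under the background level, so no fold is given. *Hif3a* did not pass without Ctrl-M replicate 2 (-0.585 and -0.555 at the 2 doses), without STEE30-M replicate 2 (-0.565 at 30 µg/mL) or without STEE50-M replicate 1 (-0.685 at 50 µg/mL). With both doses together *Hif3a* (-0.795) did not pass without Ctrl-M replicate 2 (-0.57). Between the doses 0 of the family passed. The median of the family was -0.1 at 30 µg/mL and -0.045 at 50 µg/mL.

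Beyond the CYP1 genes and *Tiparp*, 12 wider AhR targets known from other mouse tissues were measured, 9 of them above background. In STEE30-M 0 passed in either direction, and in STEE50-M 0 rose and 1 fell, *Il22*, a lymphocyte cytokine whose signal was below background on all arrays. *Il22* gave 4.75 and 4.69 in Ctrl-M, 4.56 and 4.12 in STEE30-M, and 4.06 and 4.16 in STEE50-M, a signal difference of -0.61 at 50 µg/mL (SE 0.225, adjusted p = 0.952). It did not pass without any 1 of the Ctrl-M or STEE50-M arrays (-0.66 to -0.56). Between the doses 0 of the list passed, and with both doses together *Il22* again passed downward (-0.495), but not without either Ctrl-M array, STEE30-M replicate 2 or STEE50-M replicate 1 (-0.525 to -0.385). *Nqo1*, a quinone reductase induced through both AhR and NRF2, gave 8.16 and 8.35 in Ctrl-M, 7.65 and 8.25 in STEE30-M, and 8.61 and 7.94 in STEE50-M. Both the highest and a low value of *Nqo1* came from STEE50-M, with a log2 difference of 0.02. The list median was -0.093 at 30 µg/mL and 0.002 at 50 µg/mL. The 4 genes of a list of P450 electron donors were all above background and 0 passed in any comparison. Their brightest probe sets were those of *Cyb5r3* (18.01 to 18.20 over the 6 arrays) and *Cyb5b* (14.26 to 14.58).

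ARNT also serves the hypoxia-inducible factors, whose targets were measured for 12 genes with 9 above background. *Car9*, a carbonic anhydrase, passed upward at 30 µg/mL, and *Ankrd37* passed downward at 50 µg/mL. Between the doses both were lower in STEE50-M, and with both doses together 0 passed. *Ankrd37* gave 5.51 and 5.46 in Ctrl-M, 5.44 and 5.75 in STEE30-M, and 4.92 and 4.71 in STEE50-M, with a difference of -0.67 from Ctrl-M (SE 0.217). *Car9* gave 4.36 and 4.54, 5.13 and 4.82, and 4.24 and 4.32 in the same order, a difference of 0.525 at 30 µg/mL (SE 0.216, adjusted p = 0.998). The mean signals of both genes were below background. *Ankrd37* did not pass at 50 µg/mL without Ctrl-M replicate 1 (-0.645) or STEE50-M replicate 2 (-0.565), nor *Car9* at 30 µg/mL without Ctrl-M replicate 1 (0.435), Ctrl-M replicate 2 (0.615) or STEE30-M replicate 1 (0.37). Without the last array *Car9* did not pass between the doses either (-0.54). The median over the 12 genes was 0.08 at 30 µg/mL and -0.15 at 50 µg/mL, beside -0.005 and -0.01 over all probe sets. Of the 13 PARP family relatives of *Tiparp*, all were above background and 0 passed in any comparison. The 2 brightest were *Parp3*, at 11.32 to 11.66, and *Zc3hav1*, which encodes the antiviral zinc finger protein ZAP, at 10.83 to 11.38.

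**Figure D5:**
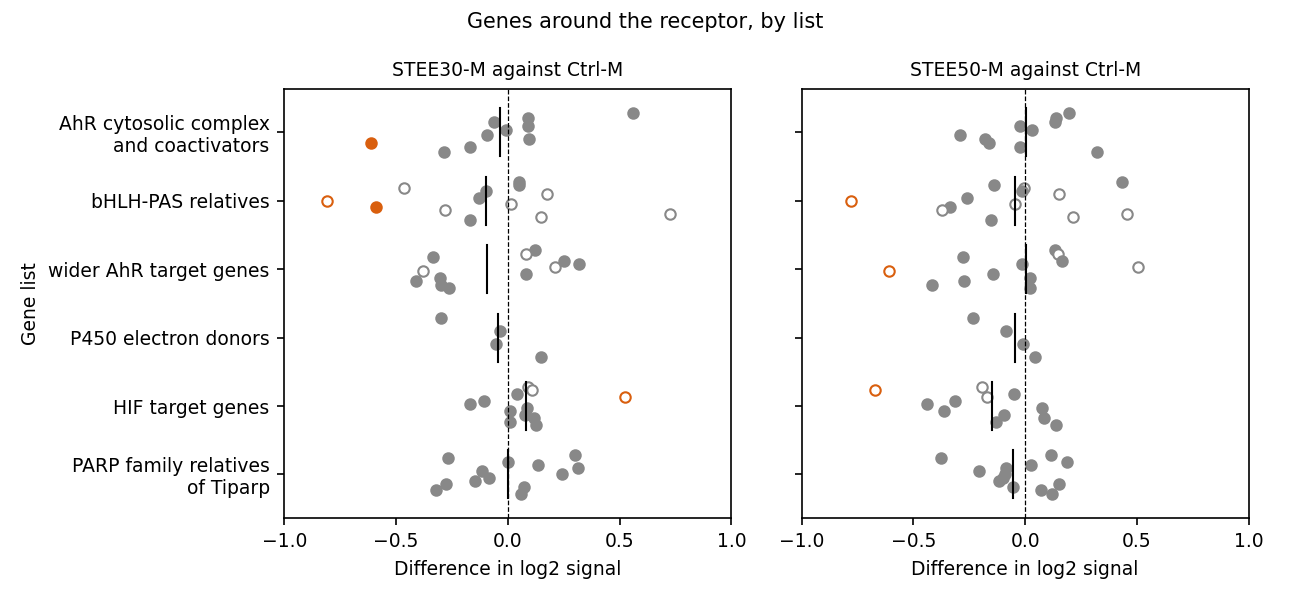
Difference in log2 signal (horizontal axis) of the genes of 6 lists around the receptor in STEE30-M and STEE50-M against Ctrl-M. Each point is a gene, filled where its mean is above background and open where it is below, orange where it passed the study thresholds and grey where it did not, and black lines are list medians. The orange points are *Ncoa3*, *Hif3a*, *Npas2* and *Car9* at 30 µg/mL and *Hif3a*, *Il22* and *Ankrd37* at 50 µg/mL.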

How the data were processed

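Total RNA of 6 samples was hybridised to Clariom S Mouse arrays. The authors deposited log2 signals per probe set, made over the 6 arrays together by SST-RMA. This method corrects for GC content and background, scales the intensities, normalizes by quantiles and summarizes by median polish. The program was taken to be Expression Console 1.4.1.46, while the paper names the Transcriptome Analysis Console for its data processing. A second deposited table held the same numbers (173076 of 173076 equal). The authors' log2 group averages lie on another scale and served only as an alternative. Their fold changes and p-values were not used.

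Groups were taken from the sample titles. Array controls were removed and all 22206 gene probe sets were fitted without a filter with lmFit and eBayes of limma 3.58.1 under R 4.3.3 (1 mean a group, residual degrees of freedom 3, prior 5.75), and p-values were adjusted by Benjamini-Hochberg over all of them. The study words its fold limit of 1.2 as a log2 change, and it was read here as linear. Intervals are 95% from the same fit. The fit was first tested on simulated data. An exact test could not go below p = 0.333 for 2 arrays against 2, and the number of arrays limits the precision. The 7 genes and the lists were chosen with earlier results of these data known. Of each list, the genes that passed the thresholds were named (up to 4), otherwise the 2 brightest. *Nqo1* and the markers *Pax7* and *Cd68* were named after their values were seen. Alternatives were other normalizations, a filter on dim probe sets, other variance priors, only the arrays compared, a replicate block, a fold of 1.5, an adjusted threshold, the authors' averages and each array left out in turn.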

Additional observations from a re-analysis of the deposited data

How the results depend on the processing

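Under the settings other than leaving each array out, 272 values of the 7 genes were recomputed, both differences and counts of genes that passed. Of these, 266 kept their direction and their side of the thresholds or moved by less than the replicate spread. Only the other normalizations and the authors' averages could change a difference. A stricter threshold could not add a call, so much of this was fixed beforehand. With the variance prior fitted along the signal, and also with the replicate block, 1 of the 7 genes passed in STEE50-M against Ctrl-M, *Cyp1b1* (0.705 in both). Same-numbered arrays did not deviate together (correlations of 0.023, 0.064 and -0.008), so the numbers were not taken as pairs, and the block changed no other call of the 7 genes. It moved the 1121 calls over all probe sets in that comparison to 1157. By the authors' averages, the step of *Ahr* between the doses was 0.01 in place of -0.04 and that of *Ahrr* 0.16 in place of 0.425. At 50 µg/mL these averages, which lie on another scale, gave 0.35 for *Cyp1b1* in place of 0.705, 0.12 for *Ahrr* in place of 0.32 and -0.07 for *Ahr* in place of -0.24. The cause of these shifts was not tested.

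Leaving out each array in turn, 162 of 192 values kept their direction and their side of the thresholds, although their size could move severalfold. Arrays of a group not compared could not change a difference. Nor could groups without overlap (*Tiparp* at each dose, *Ahrr*, *Arnt* and *Cyp1a1* at 50 µg/mL) change direction, so part was fixed beforehand. The number of the 7 genes that passed was 0 to 1 in STEE50-M against Ctrl-M, in STEE50-M against STEE30-M and for both doses. The ranges of the log2 difference in signal that crossed 0 at 30 µg/mL were -0.42 to 0.02 for *Ahr*, -0.29 to 0.08 for *Ahrr*, -0.175 to 0.045 for *Arnt*, -0.045 to 0.455 for *Cyp1a1*, -0.135 to 0.185 for *Cyp1a2* and -0.025 to 0.625 for *Cyp1b1*, while *Tiparp* ran from 0.065 to 0.335. At 50 µg/mL *Ahr* crossed 0 (-0.61 to 0.13), *Cyp1b1* ran from 0.235 to 1.175 and *Tiparp* from 0.115 to 0.335. Between the doses the ranges were -0.41 to 0.33 for *Ahr*, -0.16 to 0.06 for *Arnt*, -0.065 to 0.875 for *Cyp1b1*, -0.11 to 0.16 for *Tiparp* and -0.725 to -0.225 for *Cyp1a1*. For both doses they were -0.033 to 0.247 for *Ahrr*, -0.158 to 0.092 for *Cyp1a1*, -0.14 to 0.02 for *Cyp1a2*, 0.177 to 0.827 for *Cyp1b1* and 0.145 to 0.28 for *Tiparp*. A lone array was taken to have the spread of the others. With fewer arrays, a call can be lost without a smaller difference.

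Over all probe sets the counts of calls moved over 1.5 times as follows. Without Ctrl-M replicate 1, 658 passed at 50 µg/mL in place of 1121 and 625 for both doses in place of 992. Without STEE30-M replicate 1, 1503 passed at 30 µg/mL in place of 909. Without STEE30-M replicate 2, 1579 passed between the doses in place of 1023. With a fold of at least 1.5, 493 passed for both doses, and by adjusted p, 0 in all 4 comparisons. Of only 12032 probe sets tested above background, 380, 599, 469 and 474 passed (3.16%, 4.98%, 3.9% and 3.94%). Of the list genes that passed, under alternatives added after seeing the data, *Ncoa3* at 30 µg/mL kept its call in 10 of 15 settings, *Npas2* in 10 of 15, *Hif3a* in 10 of 14 at either dose, *Il22* at 50 µg/mL in 9 of 14, *Car9* at 30 µg/mL in 7 of 14 and *Ankrd37* at 50 µg/mL in 11 of 14. With both doses together *Npas2* kept it in 5 of 14, *Il22* in 5 of 13 and *Hif3a* in 11 of 13. Between the doses *Ankrd37* kept it in 13 of 14 and *Car9* in 12 of 14. None reversed, but groups without overlap, as here, cannot when an array is left out.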
